A study of Mus musculus with 12 samples.

Results

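The guanylate-binding proteins (GBPs) and the immunity-related GTPases (IRGs) were followed through 10 mouse genes, taken by symbol from the 55487 distinct genes of the count table: *Gbp2*, *Gbp3*, *Gbp4*, *Gbp5*, *Gbp6*, *Gbp7* and *Gbp9* of the first family, and *Irgm1*, *Igtp* and *Iigp1* of the second. All 10 passed the filter on low counts, *Iigp1* only through the libraries of high glucose without CD200Fc, in which it was high. RNA-seq of BV2 cells, an immortalised line of mouse microglia (the resident macrophages of the central nervous system), was made in 4 groups of 3 libraries. Cells of the first group had high glucose medium with CD200Fc at 50 ng/mL (HG+CD200Fc), and those of the second had high glucose medium alone (HG). The third group had normal glucose medium with CD200Fc at 50 ng/mL (NG+CD200Fc), and the fourth had normal glucose medium alone (NG). No glucose concentration, exposure time or carrier for CD200Fc is given in the sources used here, and whether replicates were grown as separate cultures is not said. The p-values therefore cover the variation among these 12 libraries only, part of which may be technical. CD200Fc joins CD200, the ligand of an inhibitory receptor on myeloid cells, to an antibody Fc part. The treatment text of the labels describes retinas of perfused mice and sorting of GFP-positive cells, whereas the source, cell line and treatment labels name BV2, and these were followed.

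GBPs and IRGs are large GTPases that interferons induce in most mouse cells, and in macrophages and microglia they are part of cell-autonomous defence. They assemble on the membranes of vacuoles that hold parasites or bacteria, damage those membranes, and bring in ubiquitin, autophagy proteins and inflammasomes. Among the IRGs, regulators such as Irgm1 and Igtp (also called Irgm3) sit on the cell's own membranes and keep effectors such as Iigp1 (also called Irga6) inactive there. Transcription is switched on through interferon-stimulated response elements (ISREs), which bind factors of the IRF family, and through gamma-activated sites (GAS).

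The genes lie in clusters (GRCm38, GENCODE M21). On chromosome 3 the order was *Gbp5* (ENSMUSG00000105504, chr3:142493978-142522344), *Gbp7* (ENSMUSG00000040253, chr3:142530342-142550149), *Gbp3* (ENSMUSG00000028268, chr3:142560026-142573209), the related *Gbp2b*, and *Gbp2* (ENSMUSG00000028270, chr3:142620602-142638008), all on the plus strand. On chromosome 5 *Gbp9* (ENSMUSG00000029298, chr5:105077630-105139539), *Gbp4* (ENSMUSG00000079363, chr5:105115767-105139586) and *Gbp6* (ENSMUSG00000104713, chr5:105270702-105293698) lie on the minus strand, and the annotated spans of *Gbp9* and *Gbp4* overlap. *Irgm1* (ENSMUSG00000046879, chr11:48861968-48871683, minus strand) and *Igtp* (ENSMUSG00000078853, chr11:58199556-58207591, plus strand) are on chromosome 11. *Iigp1* (ENSMUSG00000054072) lies apart from these clusters.

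Promoter windows of RefSeq (GRCm38.p6), reaching from 250 bases before to 50 bases after a start site, were available for 6 of the 10 genes, and *Gbp4*, *Gbp6*, *Gbp9* and *Iigp1* have no entry. An ISRE core was searched as TTTCNNTTTC or its other strand GAAANNGAAA, and a GAS as TTCNNNGAA, which reads alike on both strands. Of 32851 mouse windows, 3.44% hold the first, 8.3% the second and 0.454% both. All 6 genes have an ISRE core in a window (*Gbp3* in 1 of its 2 windows), and 3 of them, *Gbp5*, *Gbp7* and *Igtp*, have a GAS as well. A match is a description of the letters and not a shown binding site. The 120 bases before the start sites of *Gbp7* and *Gbp3* are shown because these neighbours had different levels and different responses, and those of *Igtp* because its response was like that of *Gbp7*. *Gbp2* and *Irgm1*, like *Gbp3*, have an ISRE core and no GAS, and were lower in HG+CD200Fc than in HG (-1.04 and -0.66, log2 scale). The part of the motifs in the responses was not tested. Matched motifs are in capitals, and sequences run 5′ to 3′ along the plus strand.
Gbp7 (chr3:142530216-142530335): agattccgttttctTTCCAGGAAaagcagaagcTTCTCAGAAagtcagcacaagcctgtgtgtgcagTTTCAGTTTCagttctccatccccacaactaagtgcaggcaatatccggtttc
Gbp3 (chr3:142559924-142560043): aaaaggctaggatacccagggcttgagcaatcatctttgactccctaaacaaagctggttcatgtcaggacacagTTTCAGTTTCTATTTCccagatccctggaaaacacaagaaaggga
Igtp (chr11:58199436-58199555): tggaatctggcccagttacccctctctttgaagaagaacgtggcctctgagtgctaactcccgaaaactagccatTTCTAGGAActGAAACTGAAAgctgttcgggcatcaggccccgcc
In the *Gbp7* stretch the capitals mark, from left to right, a GAS at -106 to -98, a GAS at -87 to -79 and an ISRE core at -53 to -44, counted from the start site. In the *Gbp3* stretch they mark ISRE cores at -45 to -36 and at -39 to -30, which overlap, and no GAS. The *Igtp* stretch has a GAS at -45 to -37 and an ISRE core at -34 to -25. In RefSeq windows *Gbp2* has an ISRE core at -59 to -50 (TTTCACTTTC), *Irgm1* has overlapping ones at -30 to -21 and -24 to -15, and *Gbp5* has one at -165 to -156 with GAS matches at -245 to -237 and -52 to -44. The RefSeq start sites of *Gbp2*, *Irgm1* and *Gbp5* lie 61, 263 and 2956 bases downstream of the first base of the gene in GENCODE M21, so these matches lie within the gene as GENCODE draws it. For the printed stretches of *Gbp7*, *Gbp3* and *Igtp* the distance is 6, 18 and 0 bases. Of the 10 other GBP and IRG genes whose window was searched, 7 have an ISRE core and 5 a GAS. Relatives that lie next to *Iigp1* were not among them.

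Total counts were 21454087 to 31905649 per library. In HG replicate 2 the genes of ribosomal RNA took 1.4914% of the total, and in every other library 0.0530% to 0.1193%. For the 10 genes and most other named genes, results that use HG are therefore given without it where a call changes. Calls of *Pecam1*, *Gfap*, *Pde6b*, *Rlbp1*, *Cd68*, *Fcer1g* and *Ptpn1*, and the counts for markers and other lists, are not given without it. All 12 microglia and macrophage markers averaged at least 1 CPM (counts scaled to the size of the library) in every group, and their summed level was 3890 to 4120 CPM in HG+CD200Fc, 4370 to 4930 CPM in HG, 4170 to 4340 CPM in NG+CD200Fc and 4420 to 4590 CPM in NG. The sum was lower in HG+CD200Fc than in every library of the other groups, while HG and NG overlapped. Single markers moved with the genes below, and the sum does not show their rise in HG over NG. Of the 12, 4 were called higher and 2 lower in HG than in NG (quasi-likelihood test, below), against 11.7% and 12.9% of all genes. In HG+CD200Fc against HG 1 was higher and 6 lower, against 9.46% and 8.3% of all genes. The macrophage receptor *Adgre1* (0.80 and -0.88 on the log2 scale), *Aif1* (0.44 and -0.70), the integrin *Itgam* (0.51 and -0.56) and *Ptprc* (0.29 and -0.32) were higher and then lower, and the chemokine receptor *Cx3cr1* (-1.36 and 1.51), at 1.31 CPM in HG, did the opposite. These 5 passed the interaction as well. Of the other called markers, *Cd68* (-0.19 and -0.16) was lower in both comparisons. *Fcer1g* (0.04 and -0.37) was lower in the second alone and also passed the interaction. All were named after their values were seen, and their part in the results was not tested. No marker of 8 for T and NK cells, which make interferon gamma, was above 1.4 CPM in a library, 1 of them (*Cd3e*, 1.04 CPM in HG+CD200Fc) averaged at least 1 CPM in any group, and *Ncr1*, *Klrb1c* and *Ifng* itself were at 0 in every library. Their sum was 0.504 to 1.65 CPM in HG+CD200Fc, 0.759 to 1.93 CPM in HG, 1.27 to 1.65 CPM in NG+CD200Fc and 1.1 to 1.87 CPM in NG. Of 6 endothelial markers 3 averaged at least 1 CPM in every group, and their sum was 9.49 to 11.1 CPM in HG+CD200Fc, 12.6 to 13.4 CPM in HG, 10.5 to 11.3 CPM in NG+CD200Fc and 9.28 to 10.0 CPM in NG. The sum was highest in HG, as were most of the genes below. Of the 3 endothelial markers tested, *Pecam1* alone was called higher in HG than in NG (0.57, adjusted p = 0.0488 in the same test). The part of these markers in the results was not tested. Photoreceptor markers summed to 39.3 to 43.5, 31.1 to 35.5, 31.0 to 38.8 and 35.3 to 42.4 CPM in the same order of groups, with *Crx* at 0, and those of Müller glia and astrocytes to 143 to 150, 150 to 168, 148 to 153 and 153 to 158 CPM. Among them *Pde6b* was called lower in HG than in NG (-0.27), higher in HG+CD200Fc than in HG (0.35) and in the interaction. At low levels, *Rlbp1* (1.23) was higher and *Gfap* (-1.10) lower in HG than in NG, and *Kcnj10* (1.41) higher in HG+CD200Fc than in NG+CD200Fc. None of 5 neuronal markers averaged 1 CPM, and their sum was at most 0.985 CPM.

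BV2 cells carried a few of these GTPases at high and others at very low level. Per kilobase of exon in HG, *Gbp3* was at 21.4 ± 0.321 CPM/kb and *Irgm1* at 17.0 ± 0.861 CPM/kb (SD, n = 3). *Igtp* at 8.37 ± 0.797, *Gbp9* at 4.72 ± 0.316, *Gbp7* at 2.80 ± 0.286 and *Gbp2* at 2.63 ± 0.233 CPM/kb formed a middle range. *Gbp4* at 0.417 ± 0.0643, *Iigp1* at 0.269 ± 0.0472, *Gbp6* at 0.234 ± 0.00851 and *Gbp5* at 0.187 ± 0.0198 CPM/kb were lowest. In NG the order was *Gbp3* (22.0 ± 0.965), *Irgm1* (13.0 ± 0.349), *Igtp* (4.47 ± 0.175), *Gbp9* (2.47 ± 0.301), *Gbp2* (1.87 ± 0.276), *Gbp7* (1.66 ± 0.166), *Gbp4* (0.0974 ± 0.0257), *Gbp6* (0.0931 ± 0.0183), *Gbp5* (0.0743 ± 0.0356) and *Iigp1* (0.0583 ± 0.0114 CPM/kb). In NG the ranges of mean ± SD of *Gbp2* and *Gbp7* overlapped, as did those of each pair of neighbours from *Gbp4* down to *Iigp1*. In HG the same held for *Gbp7* and *Gbp2* and for *Iigp1* and *Gbp6*. *Gbp3* and *Irgm1* were further apart than their spread in both groups, and their distance was smaller in HG. *Iigp1* was counted by 6 to 55 reads a library and *Gbp5* by 8 to 37, which limits the precision of both.

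**Figure D1:**
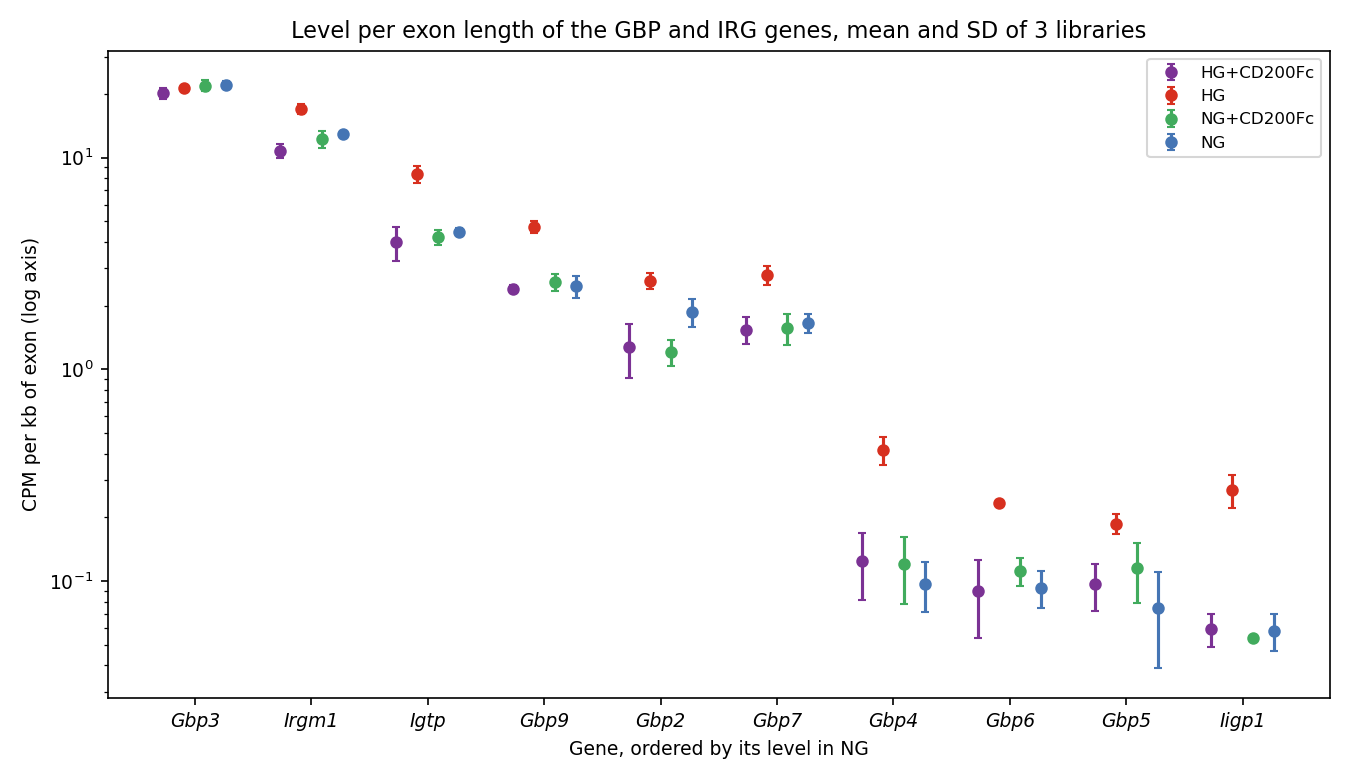
Mean level (CPM per kb of exon, log axis, with SD of 3 libraries) of the 10 genes in HG+CD200Fc, HG, NG+CD200Fc and NG, ordered by their level in NG. *Gbp3* is highest at 20.2 to 22.0 CPM/kb in every group, and *Gbp4*, *Gbp6*, *Gbp5* and *Iigp1* stay under 0.5 CPM/kb.

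High glucose without CD200Fc came with higher RNA of nearly the whole set. In HG against NG 8 of the 10 genes were higher and 0 lower in edgeR's quasi-likelihood test at a Benjamini-Hochberg adjusted p under 0.05, where 11.7% of the 19182 genes tested were called higher and 12.9% lower. The median log2 fold change, given below ± its standard error for single genes, was 0.92 for the 10, against 0.02 over all genes. In 9 of the 10 every HG library lay above every NG library, a pattern that 19.9% of all genes had. Without *Iigp1*, which passed the filter only through HG, 7 of 9 were higher with a median of 0.90. In bulk RNA, more cells that express a gene and more RNA per cell cannot be told apart. With CD200Fc in high glucose 8 of the 10 were lower and 0 higher in HG+CD200Fc than in HG, where 8.3% of all genes were called lower and 9.46% higher, with a median of -1.01 against -0.02 over all genes. In these 8 and in *Gbp5* every HG+CD200Fc library lay below every HG library, as in 16.0% of all genes. Without *Iigp1* 7 of 9 were lower with a median of -0.98. The HG libraries enter both comparisons, so the opposite signs are not independent of each other.

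**Figure D2:**
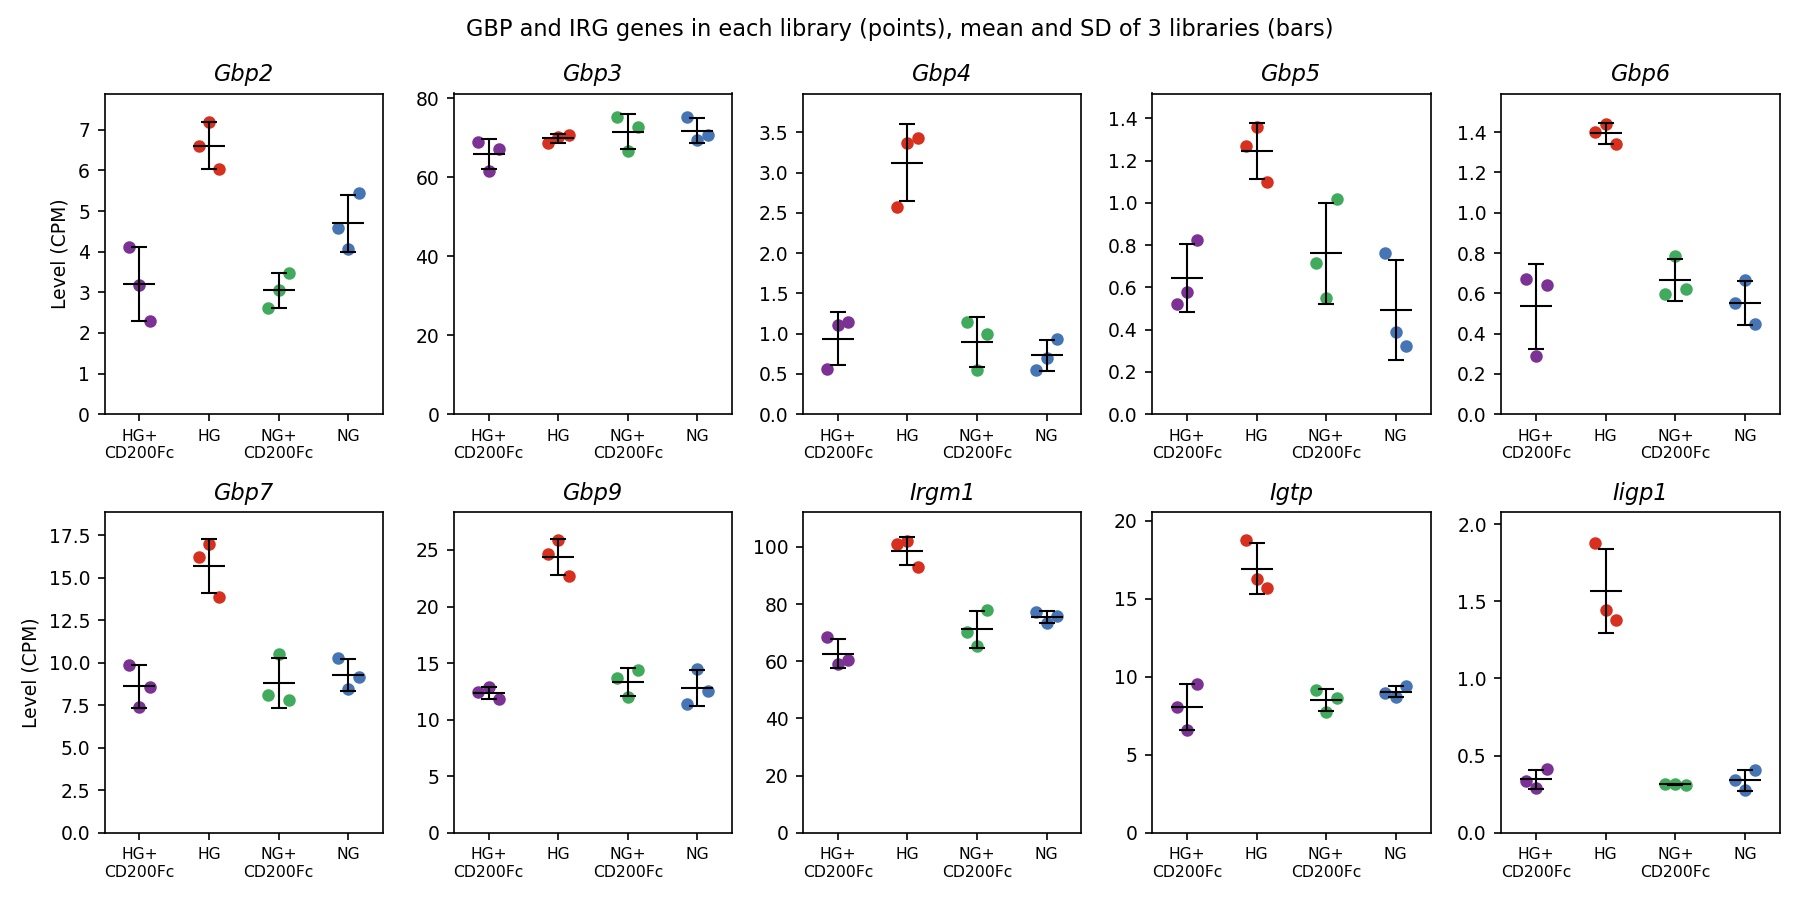
Level (CPM) of each of the 10 genes in each library (points), with the mean and SD of 3 libraries (bars), in HG+CD200Fc, HG, NG+CD200Fc and NG. HG stands above the other 3 groups in 9 panels, for example 22.7 to 25.9 CPM against 11.4 to 14.5 CPM in the other libraries for *Gbp9*. For *Gbp3* HG overlaps each of the other groups.

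On chromosome 3, *Gbp7*, which in mouse macrophages takes part in killing phagocytosed bacteria, had 9.9, 7.39 and 8.57 CPM in HG+CD200Fc, 16.2, 17 and 13.9 CPM in HG, 8.09, 10.5 and 7.83 CPM in NG+CD200Fc and 10.3, 8.45 and 9.14 CPM in NG. HG stood clear of the other groups, which overlapped. Its log2 fold change was 0.76 ± 0.135 (adjusted p = 0.000146) in HG against NG and -0.86 ± 0.137 (adjusted p = 3.98e-05) in HG+CD200Fc against HG. *Gbp2*, which in mouse cells restricts the parasite Toxoplasma and helps expose bacteria in the cytosol, had 4.11, 3.19 and 2.29 CPM in HG+CD200Fc, 6.6, 7.2 and 6.03 CPM in HG, 2.62, 3.06 and 3.48 CPM in NG+CD200Fc and 4.58, 4.07 and 5.44 CPM in NG. HG was highest and NG+CD200Fc lay below NG, while HG+CD200Fc reached just into the range of NG. Its log2 fold change in HG+CD200Fc against HG was -1.04 ± 0.201 (adjusted p = 0.000412), while its value in HG against NG, 0.49 ± 0.193 (adjusted p = 0.0629), missed the threshold although all 3 HG libraries were above all 3 NG libraries. It passed in 4 of 20 alternative analyses, with adjusted p-values of 0.0401 to 0.0473, among them the one without HG+CD200Fc replicate 3. *Gbp5*, which promotes inflammasome assembly, had 0.523, 0.58 and 0.825 CPM in HG+CD200Fc, 1.27, 1.36 and 1.1 CPM in HG, 0.714, 0.549 and 1.02 CPM in NG+CD200Fc and 0.763, 0.391 and 0.325 CPM in NG. The HG libraries were the highest, and the other groups overlapped at 8 to 33 counts a library. *Gbp5* rose by 1.33 ± 0.424 (adjusted p = 0.0215) in HG against NG, a call that was lost without NG replicate 2 (adjusted p = 0.0735), NG replicate 3 (0.101) or HG replicate 2 (0.0675). In HG+CD200Fc against HG its value was -0.96 ± 0.415 (adjusted p = 0.121), past no threshold.

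*Gbp3*, the most abundant of the 10 per length and, like *Gbp2* and *Gbp7*, found on Toxoplasma vacuoles in mouse cells, had 69.1, 61.7 and 67.2 CPM in HG+CD200Fc, 68.7, 70.2 and 70.8 CPM in HG, 75.2, 66.7 and 72.8 CPM in NG+CD200Fc and 75.4, 69.4 and 70.7 CPM in NG. All groups lay close together, HG and NG overlapped, and HG+CD200Fc and HG overlapped. Its log2 fold change was -0.04 ± 0.062 (adjusted p = 0.696) in HG against NG, with a 95% interval of -0.17 to 0.09, and -0.08 ± 0.0623 (adjusted p = 0.433) in HG+CD200Fc against HG, with an interval of -0.21 to 0.05. The estimates of the other 9 genes all lay outside these intervals, which do not exclude small changes of *Gbp3*. Within a library the log2 ratio of *Gbp7* to *Gbp3*, per count and not per length, was -2.35 to -2.04 in HG and -3.04 to -2.87 in NG, a mean difference of 0.79. It was -3.06 to -2.80 in HG+CD200Fc, a mean difference of -0.79 from HG. The pair was chosen for this difference, so the ratios are a description with no test. A window of each neighbour holds an ISRE core.

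**Figure D3:**
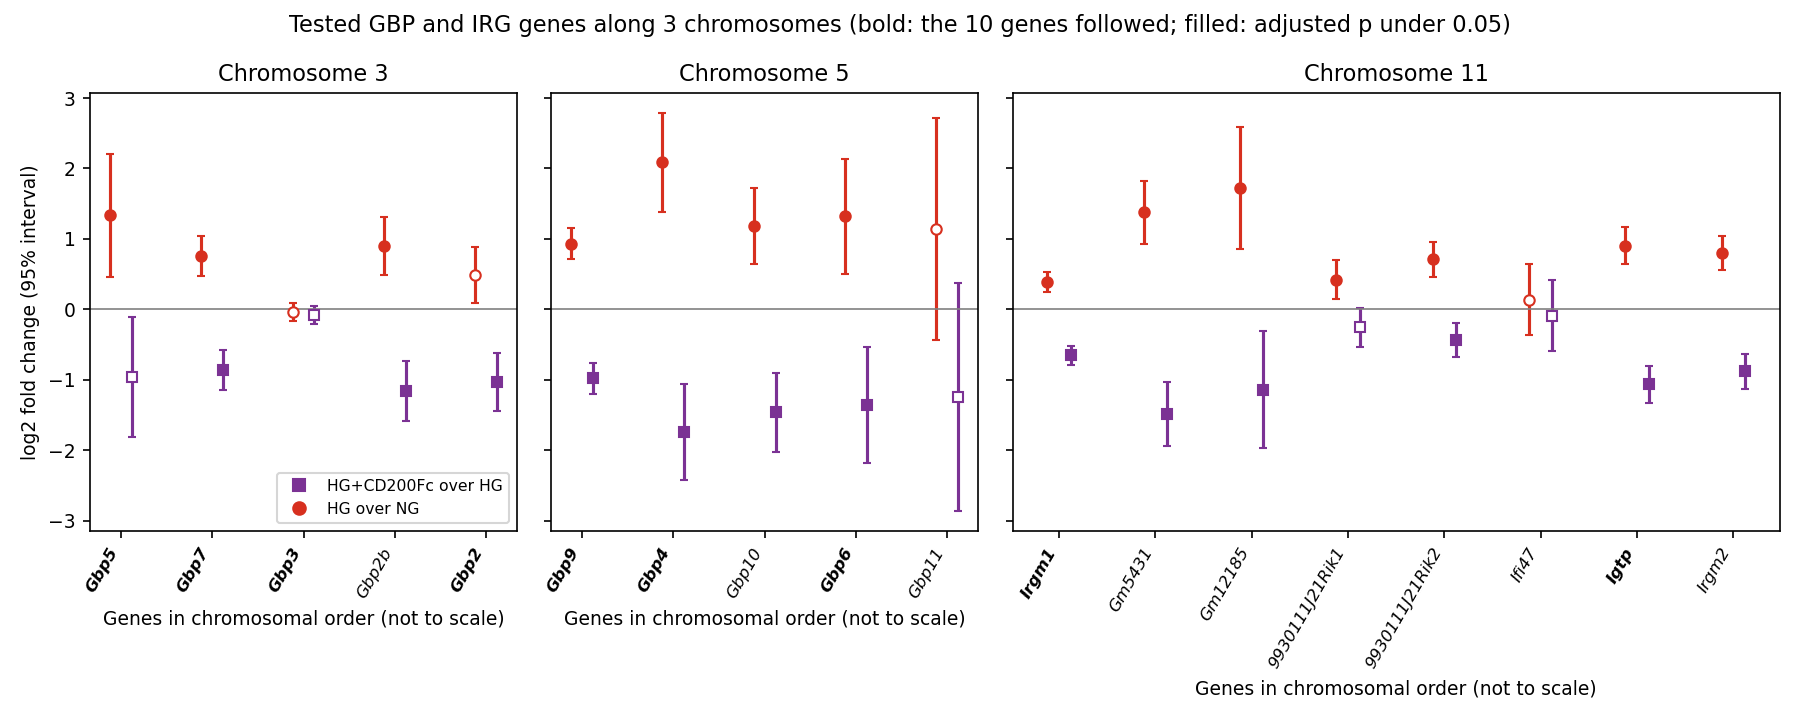
Log2 fold change with its 95% interval of the tested GBP and IRG genes in chromosomal order on chromosomes 3, 5 and 11, for HG+CD200Fc over HG (squares) and HG over NG (circles), filled where the adjusted p is under 0.05 and in bold for the 10 genes followed. *Gbp3* (-0.08 and -0.04) lies at 0 between *Gbp7* (-0.86 and 0.76) and *Gbp2b* (-1.16 and 0.90), and *Ifi47* (-0.09 and 0.14) lies at 0 on chromosome 11.

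On chromosome 5, *Gbp9*, a GBP that is also recruited to Toxoplasma vacuoles in mouse cells, had 12.4, 12.9 and 11.8 CPM in HG+CD200Fc, 24.6, 25.9 and 22.7 CPM in HG, 13.7, 12 and 14.4 CPM in NG+CD200Fc and 11.4, 14.5 and 12.5 CPM in NG. HG was well above the other groups, which overlapped. Its log2 fold change was 0.93 ± 0.106 (adjusted p = 3.04e-07) in HG against NG and -0.98 ± 0.107 (adjusted p = 1.75e-07) in HG+CD200Fc against HG. *Gbp4*, reported in mouse cells to bind Irf7 and to restrain type I interferon production, had 0.561, 1.11 and 1.15 CPM in HG+CD200Fc, 2.57, 3.37 and 3.43 CPM in HG, 1.15, 0.549 and 0.994 CPM in NG+CD200Fc and 0.551, 0.704 and 0.934 CPM in NG. No HG library overlapped the other groups. *Gbp4* was 4.24-fold higher in HG than in NG (2.09 ± 0.34, adjusted p = 4.74e-05) and fell by 1.75 ± 0.333 (adjusted p = 0.000354) in HG+CD200Fc against HG. *Gbp6*, another GBP of this cluster, had 0.673, 0.29 and 0.642 CPM in HG+CD200Fc, 1.4, 1.44 and 1.34 CPM in HG, 0.595, 0.785 and 0.621 CPM in NG+CD200Fc and 0.551, 0.665 and 0.447 CPM in NG. HG again lay above all other libraries, and HG+CD200Fc replicate 2 was the lowest. Its value was 1.32 ± 0.398 (adjusted p = 0.0153) in HG against NG, lost without NG replicate 3 (adjusted p = 0.0667), and -1.36 ± 0.402 (adjusted p = 0.0176) in HG+CD200Fc against HG, lost without HG+CD200Fc replicate 2 (adjusted p = 0.098). The counts of *Gbp6* are uncertain, since 64.5% of the 100-base words of its transcripts also occur in other genes, 59.0% in the overlapping *Gm43302*, which had 39 counts in all. For *Gbp7* the share was 10.0%, mostly with the pseudogene *Gm43802* at 0 counts, for *Igtp* it was 5.16%, all with *Irgm2*, and for the others it was at most 1.65%.

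Of the IRGs, the regulator *Irgm1*, which also acts in autophagy and in the upkeep of lysosomes, had 68.4, 59.1 and 60.5 CPM in HG+CD200Fc, 101, 102 and 93.1 CPM in HG, 70.2, 65.3 and 77.9 CPM in NG+CD200Fc and 77.4, 73.3 and 75.7 CPM in NG. HG was highest, HG+CD200Fc lay below NG with no overlap, and NG+CD200Fc overlapped both of those. It rose by 0.39 ± 0.0677 (adjusted p = 0.000106) in HG against NG and fell by 0.66 ± 0.0684 (adjusted p = 8.22e-08) in HG+CD200Fc against HG, with the smallest standard error of the 8 called genes. *Igtp*, a regulator of the endoplasmic reticulum membrane, had 8.07, 6.62 and 9.53 CPM in HG+CD200Fc, 18.8, 16.3 and 15.7 CPM in HG, 9.16, 7.73 and 8.63 CPM in NG+CD200Fc and 8.98, 8.72 and 9.42 CPM in NG. Every HG library was above every other library, and the other groups overlapped. Its log2 fold change was 0.90 ± 0.127 (adjusted p = 6.75e-06) in HG against NG and -1.07 ± 0.129 (adjusted p = 8.98e-07) in HG+CD200Fc against HG. The effector *Iigp1* (chr18:60376027-60392634, plus strand), which coats parasite vacuoles, had 0.336, 0.29 and 0.412 CPM in HG+CD200Fc, 1.88, 1.44 and 1.38 CPM in HG, 0.317, 0.314 and 0.311 CPM in NG+CD200Fc and 0.339, 0.274 and 0.406 CPM in NG. Its 3 HG libraries stood apart from 9 that overlapped at 6 to 10 counts each. Its log2 fold change was 2.19 ± 0.438 (adjusted p = 0.000484) or 4.57-fold in HG against NG, within its error of that of *Gbp4*, and -2.16 ± 0.441 (adjusted p = 0.000729) in HG+CD200Fc against HG. Only 2 libraries outside HG reached the 0.397 CPM that the filter asks of 3 libraries, so that *Iigp1* was tested because it was high in HG. With no filter its adjusted p in HG against NG was 0.000441. Without HG replicate 2, the library with more ribosomal RNA, 7 of the 10 were higher in HG than in NG (*Gbp5* lost its call) and 8 were lower in HG+CD200Fc than in HG.

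**Figure D4:**
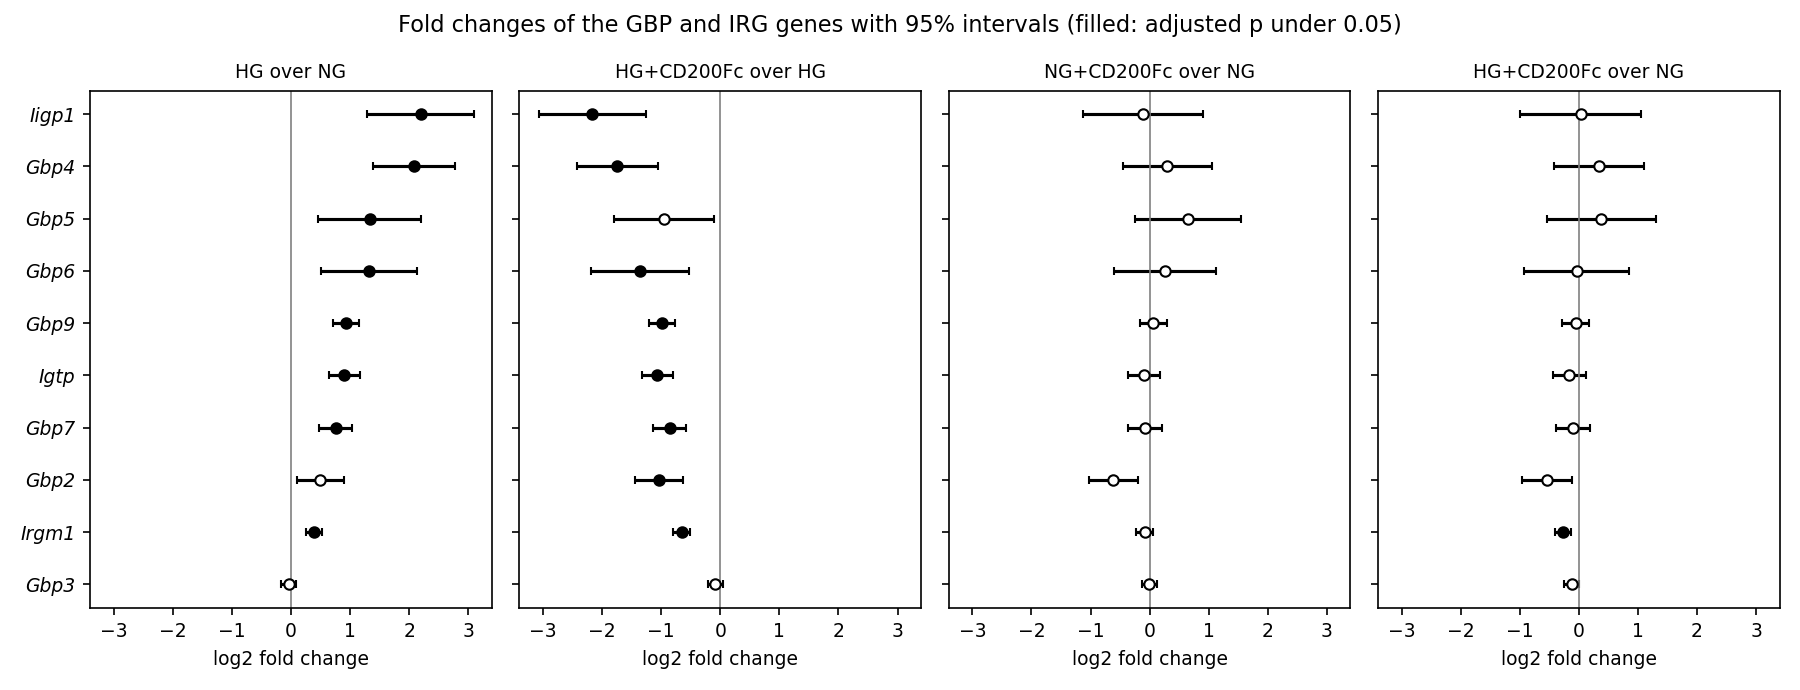
Log2 fold change with its 95% interval of the 10 genes in 4 comparisons, filled where the adjusted p is under 0.05, with genes ordered by HG over NG. Values run up to 2.19 (*Iigp1*) in HG over NG and down to -2.16 (*Iigp1*) in HG+CD200Fc over HG, 0 of 10 are called in NG+CD200Fc over NG, and only *Irgm1* (-0.27) is called in HG+CD200Fc over NG.

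In normal glucose CD200Fc gave no call for the 10 genes. In NG+CD200Fc against NG 0 of the 10 passed, their median was -0.04 (-0.0003 over all genes), and 0.0% of all 19182 genes passed in edgeR's test, while 1147 genes (5.98%) had an unadjusted p under 0.05. In this comparison DESeq2 called 0 genes and limma with voom 1, which was not among the 10. *Gbp2* was the 1 gene of the 10 with all 3 NG+CD200Fc libraries below all 3 NG libraries, as in 6.16% of all genes, at -0.61 ± 0.203 (adjusted p = 0.816). The 95% intervals ran from -0.13 to 0.12 for *Gbp3* but from -1.12 to 0.90 for *Iigp1*, so a change of *Iigp1* is bounded much less closely than one of *Gbp3*.

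Whether CD200Fc acted differently at the 2 glucose levels was tested as an interaction, the log2 fold change of CD200Fc in high glucose minus that in normal glucose. It passed below 0 for 5 of the 10 genes and above 0 for none, where 3.58% of all genes passed below 0 and 3.62% above. They were *Gbp4* (-2.05 ± 0.495, adjusted p = 0.0095), *Gbp9* (-1.05 ± 0.153, adjusted p = 5.19e-05), *Igtp* (-0.98 ± 0.185, adjusted p = 0.000986), *Gbp7* (-0.78 ± 0.195, adjusted p = 0.0121) and *Irgm1* (-0.57 ± 0.0965, adjusted p = 0.000303). All 5 passed in each of the 19 alternative analyses of the interaction. *Iigp1* (-2.05 ± 0.664, adjusted p = 0.0598), *Gbp6* (-1.62 ± 0.58, adjusted p = 0.0968) and *Gbp5* (-1.60 ± 0.602, adjusted p = 0.119) had estimates as far from 0 with wider errors and did not pass. For *Gbp2* the value was -0.42 ± 0.286 (adjusted p = 0.461), so its fall with CD200Fc was not shown to depend on glucose, and for *Gbp3* it was -0.08 ± 0.0879 (adjusted p = 0.707). The median was -1.01, against -0.01 over all genes. Since 4 group means give 1 interaction, the same values are also the glucose effect with CD200Fc minus that without it.

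With CD200Fc in both media, glucose gave no call: 0 of the 10 passed in HG+CD200Fc against NG+CD200Fc, where 8.3% of all genes did, and the median was -0.09 (-0.0006 over all genes). *Irgm1* came nearest at -0.18 ± 0.0688 (adjusted p = 0.0988), and it passed without NG+CD200Fc replicate 2 (adjusted p = 0.0274) or without HG+CD200Fc replicate 1 (0.0305). The intervals were narrow for *Gbp9* (-0.34 to 0.11) and *Gbp7* (-0.31 to 0.27) and wide for *Iigp1* (-0.87 to 1.16). Against NG, HG+CD200Fc was lower in *Irgm1* alone, at -0.27 ± 0.0689 (adjusted p = 0.00676), where 10.8% of all genes were called lower, and 0 of the 10 were higher, where 9.56% of all genes were. *Gbp2* was at -0.54 ± 0.205 (adjusted p = 0.061), and passed in DESeq2 (adjusted p = 0.0489), in limma with voom (0.0134), without NG replicate 2 (0.0482) and without HG+CD200Fc replicate 1 (0.0165). *Irgm1* and *Gbp3* were the 2 genes with every HG+CD200Fc library below every NG library, as in 19.4% of all genes. The median of the 10 in this comparison was -0.08, against 0.00 over all genes.

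In the authors' deposited table of fold changes, which covers 15372 genes including all 10, 9 of the 10 have a false discovery rate under 0.05 in HG against NG, *Gbp2* (0.038) being the gene added to the 8 above. The authors' deposited table has the same number lower in HG+CD200Fc against HG, 8, and 0 in NG+CD200Fc against NG. In HG+CD200Fc against NG the authors' deposited table has 2 lower, *Irgm1* (0.00746) and *Gbp2* (0.0451). Its log2 fold changes differed from those given here by at most 0.013 in any of these comparisons.

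Of 18 other GBP and IRG genes 8 had too few counts to be tested. Of the 10 tested, 8 were higher in HG than in NG (11.7% of all genes), 7 were lower in HG+CD200Fc than in HG (8.3%) and 4 passed the interaction below 0 (3.58%). For the 8 that would have passed the filter without HG the counts were 7 higher (median 0.85) and 6 lower (median -1.01). *Gbp2b*, next to *Gbp2*, had 2.8, 2.9 and 2.34 CPM in HG+CD200Fc, 6.16, 6.67 and 5.16 CPM in HG, 3.05, 3.22 and 3.88 CPM in NG+CD200Fc and 4.15, 2.74 and 2.76 CPM in NG. *Irgm2*, the third regulator IRG and a neighbour of *Igtp*, had 11.2, 9.03 and 9.81 CPM in HG+CD200Fc, 17.7, 19.4 and 18.5 CPM in HG, 10.1, 8.12 and 10.7 CPM in NG+CD200Fc and 11.1, 10.1 and 10.8 CPM in NG. Both were highest in HG, with no overlap with another group. *Gbp10* (1.18 in HG against NG, -1.46 in HG+CD200Fc against HG), *Gm5431* (1.38, -1.48) and *9930111J21Rik2* (0.71, -0.44) also passed both comparisons, and *9930111J21Rik1* passed the first (0.42) but not the second (-0.25, adjusted p = 0.22). The first call of *9930111J21Rik1* was lost without NG replicate 2, NG replicate 3 or HG replicate 2 (adjusted p = 0.0764, 0.113 and 0.0834). The second call of *9930111J21Rik2* was lost without HG+CD200Fc replicate 2 or 3 (adjusted p = 0.0648 and 0.0565). *Ifi47*, an effector IRG on chromosome 11, had 4.07, 1.98 and 2.89 CPM in HG+CD200Fc, 3.15, 3.11 and 3.35 CPM in HG, 2.02, 3.14 and 3.73 CPM in NG+CD200Fc and 3.05, 3.13 and 2.56 CPM in NG. Its groups overlapped, and its values of 0.14 ± 0.247 (adjusted p = 0.74) and -0.09 ± 0.247 (adjusted p = 0.868) did not pass. All 4 tested interferon-inducible dynamin-like GTPases were higher in HG than in NG, lower in HG+CD200Fc than in HG, and passed the interaction. Among them, the antiviral *Mx1* was at 1.89 and -1.89 and *Mx2* at 1.23 and -1.02, followed by *Gvin1* (0.86, -0.78) and *Gm4070* (0.81, -0.80).

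Of the interferon pathway upstream, 3 ligand genes were looked at. *Ifng* and *Ifna4* had 0 counts in all 12 libraries, which allows up to 3 counts or 0.094 to 0.14 CPM a library, and *Ifnb1* had 32 counts in all. These limits cover counting error only. Of 4 tested interferon receptor chains, *Ifnar1* was slightly higher in HG than in NG (0.19 ± 0.0619, adjusted p = 0.0276), and *Ifngr1* was lower in HG+CD200Fc than in HG (-0.37 ± 0.0921, adjusted p = 0.00524). The *Ifnar1* call was lost without NG replicate 2, NG replicate 3 or HG replicate 2 (adjusted p = 0.0948, 0.0877 and 0.117), with no filter (0.0984) and with the HG and NG libraries alone (0.0519). Among 11 JAK, STAT and IRF genes 8 were higher (11.7% of all genes) and 0 lower (12.9%) in HG than in NG, with a median of 0.29. In HG+CD200Fc against HG 5 were lower (8.3% of all genes) and 0 higher (9.46%), with a median of -0.22. *Stat2*, a signal transducer of the interferon receptors, had 39.6, 33.4 and 36.8 CPM in HG+CD200Fc, 73.4, 71.6 and 67.7 CPM in HG, 32.5, 31.6 and 31.9 CPM in NG+CD200Fc and 28, 30.7 and 32 CPM in NG. HG lay above every other library, and the libraries of HG+CD200Fc also lay above those of NG. *Irf1*, which drives GBP transcription, changed by 0.43 ± 0.0924 (adjusted p = 0.00104) in HG against NG and -0.36 ± 0.0925 (adjusted p = 0.00625) in HG+CD200Fc against HG. Without HG+CD200Fc replicate 3 the second *Irf1* value had an adjusted p of 0.0502. Of 7 negative regulators *Usp18* (0.62) and *Socs3* (0.51) were higher in HG than in NG, and *Usp18* (-0.81) was lower and *Ptpn1* (0.20) higher in HG+CD200Fc than in HG. The counts of called regulators and receptor chains are too small to be read against the shares of all genes.

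The machinery that the GTPases work with was followed through 4 lists of 30 genes. Of these 3 were higher and 4 lower in HG than in NG, shares near the 11.7% and 12.9% of all genes, while 0 were higher and 7 lower in HG+CD200Fc than in HG, against 9.46% and 8.3%. The interaction passed below 0 for 1 of the 30 (3.58% of all genes), *Rnf213*, and for 13 of the 24 tested GTPases. Against NG, 1 of the 30 was higher and 9 were lower in HG+CD200Fc, where 9.56% and 10.8% of all genes were. Of the 24 GTPases 0 were higher and 1 was lower there. Of 6 enzymes of CaaX prenylation, which attaches the lipid that anchors some GBPs, 0 were higher in HG than in NG and 1, *Zmpste24* (-0.24 ± 0.0645, adjusted p = 0.00765), was lower. In HG+CD200Fc against HG 0 of the 6 passed in edgeR's test. Of 11 genes of the autophagy conjugation system, which places GBPs and IRGs on vacuoles, *Map1lc3a* was higher (0.32) and *Gabarapl1* lower (-0.24) in HG than in NG. *Map1lc3a* (-0.34) and *Gabarap* (-0.45, a gene singled out after its values were seen) were lower in HG+CD200Fc than in HG. Of 9 inflammasome and pyroptosis genes *Gsdmd*, which forms the pyroptotic pore, was higher (0.23) and *Casp1* lower (-0.22) in HG than in NG. *Gsdmd* (-0.22), *Ninj1* (-0.32) and *Il18* (-0.72) were lower in HG+CD200Fc than in HG. The last list held 4 genes, for ubiquitin itself (*Ubb*) and for ubiquitin ligases and adaptors that act on vacuoles. Of these *Rnf213* was higher (1.00) and *Traf6* lower (-0.23) in HG than in NG, and *Rnf213* (-0.71) and *Trim21* (-0.44) were lower in HG+CD200Fc than in HG. Several of these calls were lost when 1 library was left out, while the log2 fold changes were then -0.19 to -0.23 in HG against NG and -0.17 to -0.68 in HG+CD200Fc against HG. In HG against NG the call was lost without HG replicate 2 for *Gabarapl1*, *Casp1* and *Traf6* (adjusted p = 0.0855, 0.0585 and 0.0524), without NG replicate 1 for *Casp1* (0.101) and *Traf6* (0.0506), without NG replicate 3 for *Gabarapl1* (0.0582) and *Casp1* (0.0642), and without HG replicate 3 for *Gabarapl1* (0.0599). In HG+CD200Fc against HG it was lost without HG replicate 1 for *Gsdmd*, *Ninj1* and *Il18* (adjusted p = 0.0571, 0.0576 and 0.0676), without HG+CD200Fc replicate 2 for *Ninj1* (0.0618) and without HG+CD200Fc replicate 3 for *Il18* (0.1). The medians of these 4 lists in HG against NG were -0.13, -0.01, 0.07 and 0.09, against 0.02 over all genes.

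Genes outside the 10 with the most similar pattern were ranked by the root mean square difference, over the 3 log2 fold changes against NG, from the median of the 10 genes, among 4033 genes called in HG against NG with a mean of at least 1 CPM, predicted genes and pseudogenes left out. The 8 nearest were *Dhx58* (0.0173), *Sp100* (0.052), *Tlr1* (0.0542), *Ifi44* (0.0594), *Dnaaf3* (0.0623), *Bst2* (0.0661), *Tap1* (0.0674) and *Rsad2* (0.0675). The ranking uses 12 libraries in 4 groups and shares its NG libraries among the 3 fold changes, so it is a description with no test.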

How the data were processed

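RNA-seq counts of 12 BV2 libraries in 4 groups of 3 were analysed. Counts were taken as the authors deposited them, raw and per gene. Per the submitters' processing notes, STAR, Subread featureCounts and Salmon were used with build GRCm38, with edgeR and limma for the authors' own tests. Per the labels' protocols, libraries of RNA depleted of ribosomal RNA were read from both ends over 150 bases. No annotation release and no strand setting of the counting is given in the sources used here, so reads of overlapping or antisense genes cannot be told apart. The log2 fold changes, p-values and false discovery rates of another deposited table were used only where that table is named. The 10 genes and all gene and marker lists were chosen with earlier results of these data known.

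The count table had 55774 lines, of which 287 repeated a gene ID with equal counts and were dropped, and GENCODE M21, the source of positions and exon lengths, held 99.4% of the 55487 IDs. A filter on low counts (filterByExpr, 4 groups) left 19182 genes, libraries were scaled by TMM, and the group means of all 12 libraries were fitted in 1 quasi-likelihood model (edgeR 4.0.16 in R 4.3.3, robust, biological coefficient of variation 0.0908). Benjamini-Hochberg adjustment was made over all genes within each of 5 pairwise comparisons and the interaction. Standard errors and 95% intervals came from the quasi-likelihood F statistic and its degrees of freedom. Levels are CPM on TMM-scaled library sizes, and CPM per kb divides by the summed exon length. Library totals were 21454087 to 31905649, and without molecular identifiers these cover counting error only. Shared sequence was measured as 100-base words of GENCODE transcripts found in another gene. Alternatives were other scalings, filters, DESeq2 1.42.0, limma 3.58.1 with voom, a replicate block, only the groups compared, and each library left out.

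Named were all 10 genes, relatives with a mean of at least 1 CPM, up to 6 genes of each other list with the smallest p in HG against NG, and the 8 genes with the nearest pattern. Cell type markers, *Gabarap*, *Ifng*, *Ifna4*, *Ifnb1* and the overlapping genes *Gm43302* and *Gm43802* fell outside this rule.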

Additional observations from a re-analysis of the deposited data

Results flagged for a closer look

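For 13 of 24 tested genes of these GTPase families the effect of CD200Fc differed between high and normal glucose in a test of the difference itself, edgeR's interaction term at an adjusted p under 0.05. Each value is the log2 fold change of CD200Fc in high glucose minus that in normal glucose, and all 13 were below 0, where 3.58% of all genes passed below 0 and 3.62% above. The other 11 did not pass. Among the 10 genes followed they were *Gbp4* at -2.05, *Gbp9* at -1.05, *Igtp* at -0.98, *Gbp7* at -0.78 and *Irgm1* at -0.57. Of the other GBP and IRG genes they were *Gm5431* at -1.69, *Gbp10* at -1.30, *Gbp2b* at -1.24 and *Irgm2* at -0.74. Of the dynamin-like GTPases they were *Mx1* at -1.56, *Mx2* at -0.98, *Gvin1* at -0.90 and *Gm4070* at -0.81. In NG+CD200Fc against NG none of the 13 passed, and the HG libraries were the highest of the 4 groups in the genes whose libraries are given above.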

How the results depend on the processing

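Over 20 alternatives (19 for the interaction) the 22 calls made for the 10 genes kept their direction and their side of the threshold in 429 of 434 values, and the 5 losses, of *Gbp5* and *Gbp6*, are given above. DESeq2 gave no adjusted p for 8 values of low genes, among them *Iigp1* in HG+CD200Fc against HG, so its count there was 7 of the 10. The number higher in HG than in NG was 6 to 9, lowest without NG replicate 3, and the number lower in HG+CD200Fc than in HG was 7 or 8. *Iigp1* passed the interaction with the stricter filter (adjusted p = 0.0354, range 0.0354 to 0.144). That filter asks for 1 CPM in 3 libraries, which *Iigp1* reached in the HG libraries alone. It was thus tested there because it was high in HG, and the pass is no separate support.

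Genes called in HG+CD200Fc against NG+CD200Fc, 1593 in all, were 2597 with limma and voom and 282 to 2271 with 1 library left out (282 without HG+CD200Fc replicate 2, 350 without NG+CD200Fc replicate 3, 644 without NG+CD200Fc replicate 1, 668 without HG+CD200Fc replicate 3), and the number of the 10 called lower was 0 to 1. The count for HG+CD200Fc against NG was 3903, and 2252 to 4176 with 1 library left out (2252 without NG replicate 1, 2415 without HG+CD200Fc replicate 2), while 2 of the 10 were lower in DESeq2 and with voom and 1 to 2 with 1 library left out. In NG+CD200Fc against NG, 21 genes were called with no filter, 1 with voom, 9 with only the groups compared and 0 to 8 with 1 library left out (8 without HG replicate 1). The cause of these shifts was not tested.

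The labels do not say that a replicate number marks a shared culture or day. Deviations from the group means correlated at -0.07 to 0.192 in 18 same-numbered pairs, 5 of them over 0.1 and 4 of these between replicates 2, and at -0.215 to 0.246 in 36 other pairs, 3 of them over 0.1, so pairing by number was not taken as given. With the replicate number as a block, 5258 genes were called in HG against NG (4720 without), 2314 in HG+CD200Fc against NG+CD200Fc, 2 in NG+CD200Fc against NG and 1723 in the interaction, and the block changed no call of the 10 genes.

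Signs turned only for values that were not called. With upper quartile scaling they were *Gabarap* in HG against NG (0.0131), *Gbp7* in HG+CD200Fc against NG+CD200Fc (0.0116), *Gbp3* in NG+CD200Fc against NG (0.0016) and *Gbp6* in HG+CD200Fc against NG (0.0034). With voom they were *Gbp4* (-0.0492) and *Gbp7* (0.0237) in HG+CD200Fc against NG+CD200Fc, *Gbp3* (0.0268) in NG+CD200Fc against NG and *Gbp6* (0.0237) in HG+CD200Fc against NG. With 1 library left out the ranges were, in HG against NG, -0.0092 to 0.0755 (*Ifngr1*), -0.15 to 0.0781 (*Gabarap*) and -0.19 to 0.0359 (*Ninj1*). For HG+CD200Fc against NG+CD200Fc they were -0.16 to 0.26 (*Gbp2*), -0.21 to 0.32 (*Gbp4*), -0.48 to 0.019 (*Gbp5*), -0.14 to 0.12 (*Gbp7*) and -0.21 to 0.0415 (*Igtp*). In NG+CD200Fc against NG they were -0.0414 to 0.0404 (*Gbp3*), -0.23 to 0.0024 (*Gbp7*), -0.0109 to 0.16 (*Gbp9*) and -0.25 to 0.0368 (*Iigp1*). For HG+CD200Fc against HG they were -0.39 to 0.13 (*Ifi47*), -0.0045 to 0.10 (*Gabarapl1*) and -0.0259 to 0.0413 (*Zmpste24*), and in HG+CD200Fc against NG -0.24 to 0.24 (*Gbp6*), -0.13 to 0.0478 (*Gbp9*) and -0.11 to 0.18 (*Iigp1*).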
